A study of Mus musculus with 10 samples.

Results

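C3 and C2 cells are late passages of cells grown out of the mouse heart, and the labels give both as negative for c-kit and CD45. Left atrial appendages, the small pouches of the left atrium, were taken from C57BL/6 mice aged 8 to 12 weeks, and the pieces were digested 3 times for 5 min and then cultured. In the weak digestion, trypsin was used at 0.05% and collagenase D at 0.1%, and the cells obtained were the B-type cells. The labels give C3 as passage 10 and C2 as passage 8 of the B-type cells, so passage is the only label in which they differ. The libraries were chosen by these labels: 2 of C3 and 2 of C2, which are 4 of the 10 libraries of the series. The other libraries, 2 of each type, are C1 (passage 6 of the B-type cells, c-kit+/CD45-), B (primary cells of the weak digestion, c-kit+/CD45+) and A (primary cells of the strong digestion with trypsin at 0.25%, c-kit+/CD45-). The replicates are described as sorted cells, and no label gives the sex of the mice, their number or whether 2 replicates came from separate cultures. The p-values below therefore measure the spread between these libraries, which may be technical. The comparison asks how the transcripts of the passage 10 cells differ from those of the passage 8 cells.

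Several gene groups bear on cells that are kept in culture. Connective tissue cells secrete collagens and other matrix proteins, while mesothelial and epithelial cells carry keratin filaments. CDK inhibitors, among them those made from the Cdkn2a and Cdkn2b genes, stop the cell cycle as cells age in culture. Type I interferon acts through factors that include STAT2 and IRF9, which bind a DNA element with repeated GAAA and switch on antiviral genes. Imprinted genes are used from the copy of 1 parent, and many of them act on growth. Bulk RNA of a sorted culture cannot tell fewer cells of a kind from less RNA per cell, which holds for every value below.

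The deposited values are log2 values, each relative to the median of the gene over the 10 libraries, so they compare libraries for 1 gene and not genes with each other. A value of 3 lies 3 log2 units above that median. A gene was called where limma gave an adjusted p under 0.05 and an absolute difference, C3 minus C2, of at least 1 on the log2 scale. For 4763 of the 17821 genes with values the level could also be read back as normalized reads, on a scale where the lowest value is 1. On that scale 1 read was worth 0.259 and 0.199 normalized reads in C3, against 2.04 and 1.04 in C2, so the C3 libraries were on average 6.11 times deeper. A count of 0 allowed up to 3 reads, or 6.12 and 3.11 normalized reads in C2, while in C3 that limit lay under the lowest value of 1. Depth and passage cannot be told apart, and differences near the C2 limit are given as normalized reads. The C3 libraries lay close together, as did those of C2. The root mean square log2 difference between replicates was 0.435 in C3 and 0.52 in C2, against 1.51 between C3 and C2. In A it was 1.06, and the fit pools the spread of all 10 libraries. Each SE and p-value below therefore also holds the gap between the A libraries. Without type A, 4285 genes were called, against 3971 with it.

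The sort markers did not separate C3 from C2. Kit, the gene of c-kit, had 1 and 1 normalized reads in C3, against 1 and 3.11 in C2. Ptprc, the gene of CD45, was at the lowest value of 1 in all 4 libraries. Both genes were thus under the limit of 3 reads in both types, as their labels say, and neither passed the test.

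Transcripts of the sex chromosomes did differ between C3 and C2, although the labels derive both from the B-type cells. Of the 4 genes of the Y chromosome that were tested, Ddx3y, an RNA helicase gene, was at the lowest value of 1 normalized read in both C3 libraries, against 57.2 and 86.2 in C2. Eif2s3y, which encodes a translation initiation factor subunit, was at 1 and 1 in C3, against 41.1 and 55.1 in C2. Kdm5d, a histone demethylase gene, was at 1 and 1 in C3, against 40.8 and 44.5 in C2. Uty, another demethylase gene of the Y chromosome, was at 1 and 1 in C3, against 20.4 and 27.5 in C2. All 4 fell, and they were at least 71.7-fold, 48.1-fold, 42.6-fold and 24.0-fold lower in C3, against the lowest value in each library. Xist, the RNA that silences one X chromosome in female cells, rose by 5.21 ± 0.89 (SE) on the log2 scale (limma adjusted p 0.0037). Its log2 values were -0.17 and 0.17 in C3, against -5.80 and -4.61 in C2, with no overlap between the types. Xist overlaps its antisense partner Tsix and the library kit does not mark strand, so the 2 cannot be told apart, and Tsix itself was listed at 1 to 1.04 normalized reads. Relative to C1, the Y genes stood at no more than 0.0772% to 0.527% in C3, and at 5.53% to 12.6% in C2. C1 is the highest reference: the median log2 value of the 4 genes was 1.397 and 1.322 in C1. It was 0.103 and 0.222 in B, 0.496 and -0.080 in A, and -2.425 and -2.054 in C2. In the whole list of 11 tested sex chromosome genes, 3 rose, 4 fell and 4 did not pass. A difference of passage and a difference in the animals or cultures that gave C3 and C2 cannot be told apart.

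Between C3 and C2, 3971 of 14253 genes tested were called (27.9%), of which 1656 were higher in C3 (11.6%) and 2315 lower (16.2%). The lower genes moved further: their median absolute difference was 2.05, against 1.5 for the higher genes. Differences of at least 2 were found in 472 higher and 1193 lower genes, and differences of at least 5 in 75 higher and 121 lower genes. Under quantile normalization the split turned to 2079 higher and 1865 lower genes, so the excess of lower genes depends on the scaling, while the median difference of all genes was 0 in the values as deposited and 0.0434 after quantile normalization. Both C3 libraries lay above both C2 libraries in 38.1% of all genes tested and below them in 37.6%, which is the background for each statement below that libraries did not overlap. When the difference was tested against 1 rather than against 0, 1458 genes passed, 446 higher and 1012 lower. In 107 genes called higher C2 was under its limit, in 137 genes called lower C3 was, and in 49 called genes both were. These counts cover only called genes of known level, since 3567 of the 3971 called genes have an unknown level.

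Described in 45 gene lists, the differences were uneven, and list medians are given beside their value under any alternative that moves them by over 1.5 times and over 0.1. Of 917 listed genes, 872 had values and 795 were tested. The counts of each list stand against 11.6% of all genes called higher and 16.2% called lower. Interferon-stimulated genes, mitosis and DNA replication genes held the largest shares of members called higher. Insulin-like growth factor genes, fibroblast and matrix genes and chondrocyte and bone genes held the largest shares called lower. Ribosomal protein genes (23 tested) and endoplasmic reticulum chaperones (19 tested) held no called gene, and their medians were -0.18 and -0.10, or -0.29 for each without C3 replicate 1, the chaperones' being 0.05 with 1 member called under quantile normalization. Without C3 replicate 1, 1 chaperone was called lower. At an unadjusted limma p under 0.05, with no limit on size, 0 ribosomal protein genes were higher and 4 lower, and 4 chaperones were higher and 5 lower. By the same count, no gene was lower among interferon-stimulated, mitosis and DNA replication genes, and no gene was higher among adipocyte, chondrocyte and bone, and pericyte genes. In other lists described below as holding no riser, 3 smooth muscle genes, 3 glycolysis genes and 1 gene each of the insulin-like growth factor, cardiac transcription factor, lysosome and epithelial-mesenchymal lists were higher at that p.

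**Figure D1:**
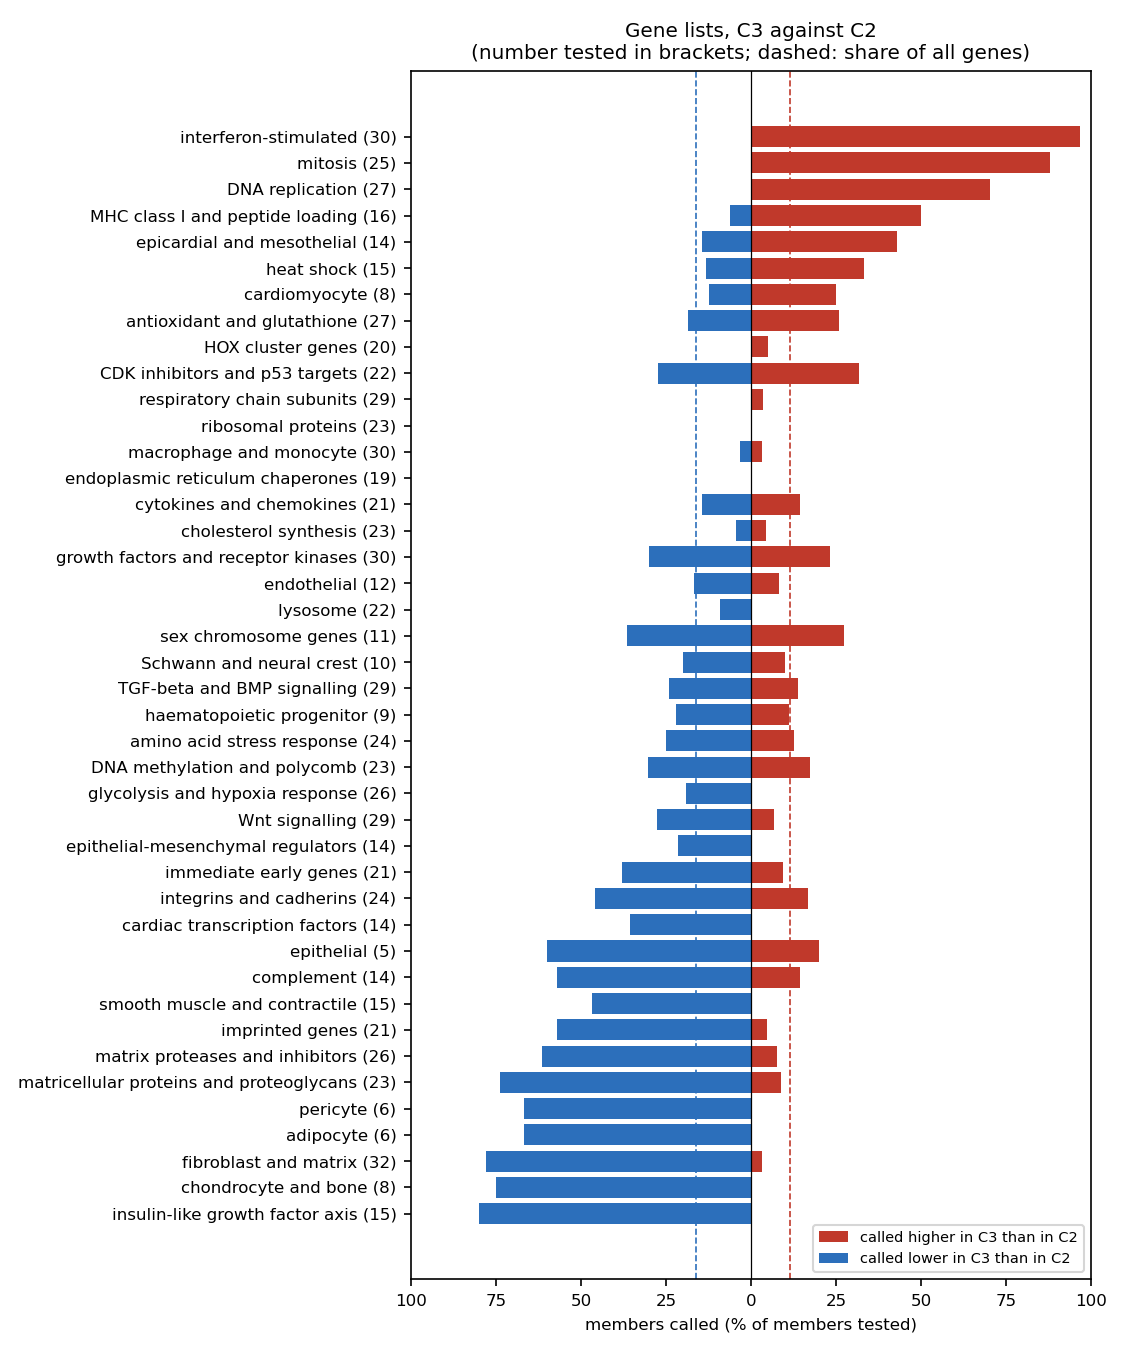
Share of tested list members called higher in C3 than in C2 (red, to the right) and lower (blue, to the left), in percent, for each list with at least 5 tested members. Lists are ordered by the share called higher minus the share called lower. The number tested stands in brackets and the dashed lines mark the shares of all genes (11.6% higher, 16.2% lower). The longest red bar is that of the interferon-stimulated genes (29 of 30, 96.7%). The longest blue bar is that of the insulin-like growth factor genes (12 of 15, 80%).

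The antiviral program stood highest. Of 30 interferon-stimulated genes, 29 rose in C3 and 1, Mx1, did not pass, with a median difference of 3.64. Among all genes tested 11.6% rose. Both C3 libraries lay above both C2 libraries in all 30. The members named first are the 4 with the largest differences. They are followed by genes picked after their values were seen, for their role or their promoter.

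The Oas family, which includes the 2'-5'-oligoadenylate synthetases that sense double-stranded RNA and activate RNase L, led the list. Oas3 had log2 values of 6.42 and 6.41 in C3, against -0.39 and -0.69 in C2, a difference of 6.96 ± 1.46 (SE, limma adjusted p 0.0081). Oas1a had 5.76 and 5.46 in C3, against -1.16 and -1.23 in C2, a difference of 6.81 ± 0.21 (adjusted p 8.1e-06). Oasl1 had 6.02 and 5.55 in C3, against -0.73 and -1.12 in C2, a difference of 6.70 ± 0.64. These genes belong to a family of near copies, between which the authors' counting may split reads. Usp18, the protease that removes ISG15 from proteins and dampens the interferon receptor, had 6.47 and 6.38 in C3, against -0.18 and -0.09 in C2. It rose by 6.56 ± 0.41. In the 6 libraries of C1, B and A, Usp18 lay between -0.46 and 1.20 and Oas3 between -3.74 and 2.13, all below both C3 libraries. The upper end of the Oas3 range lay above both C2 libraries.

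The factors that carry the interferon signal rose as well. Stat2, a signal transducer of the interferon receptors, had 1.88 and 1.98 in C3, against -0.06 and -0.05 in C2. Irf9, its DNA-binding partner, had 1.28 and 1.18 in C3, against -0.26 and -0.01 in C2, a rise of 1.37 ± 0.19. Irf7, which drives interferon gene transcription after a virus is sensed, rose by 3.63 ± 0.36. The RNA sensors Ddx58, which encodes RIG-I, and Ifih1, which encodes MDA5, rose by 2.81 ± 0.23 and 2.18 ± 0.14. The receptor genes did not pass: Ifnar1 differed by -0.50 ± 0.15 and Ifnar2 by -0.66 ± 0.22. Mx1, an antiviral GTPase gene, had 1.53 and 1.04 in C3, against 0.39 and -0.69 in C2, and its difference of 1.43 ± 0.62 did not pass.

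**Figure D2:**
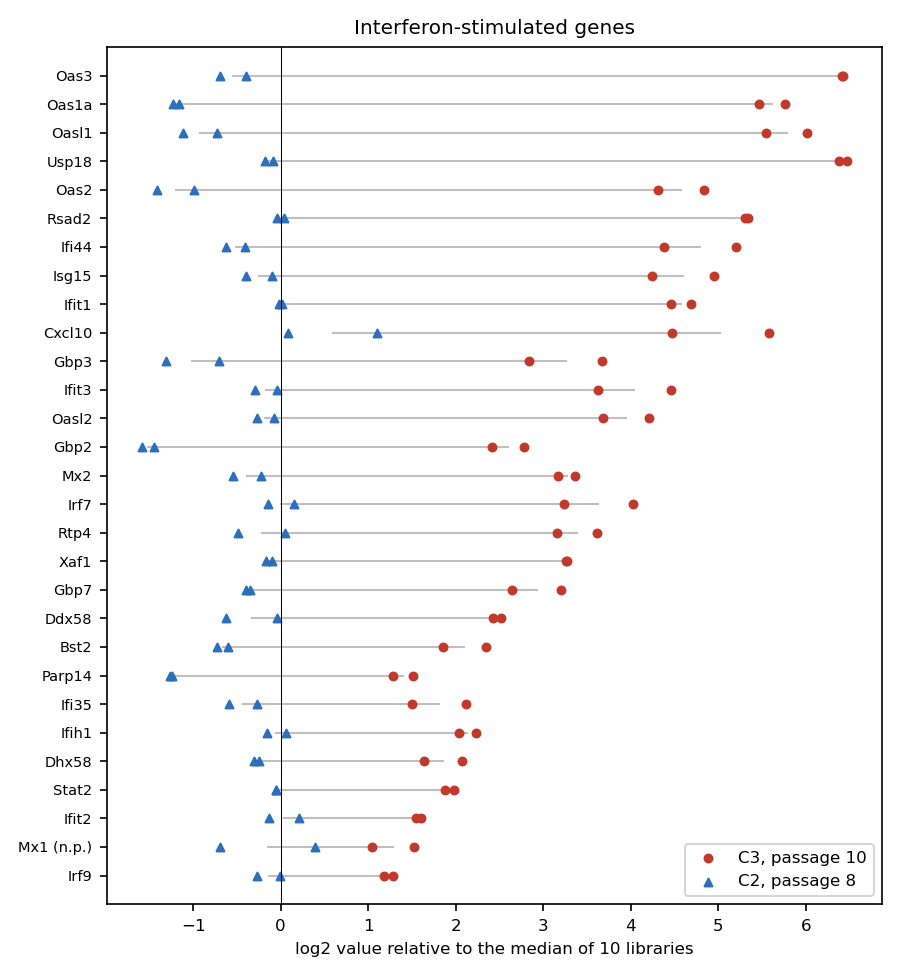
Log2 value of 29 of the 30 interferon-stimulated genes relative to its median of 10 libraries (x axis), with 1 red circle per C3 library, 1 blue triangle per C2 library and a grey line between the type means. The C3 circles lie to the right of the C2 triangles in every row, by 1.37 (Irf9) to 6.96 (Oas3); n.p. marks the 1 gene that did not pass.

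The promoters of 3 of these genes are shown because they hold the interferon response element in their start region. Each run gives 250 bases before and 50 after the start of the gene, from RefSeq on GRCm38.p6, with every match on either strand in capitals. The element searched was a repeat of GAAA with 2 bases of any kind between. The genes are those with the largest rise whose promoter held a match: Oas3 (chr5:120777610-120777909, minus strand), Oas1a (chr5:120907476-120907775, minus strand) and Rsad2 (chr12:26456403-26456702, minus strand), the gene of the antiviral enzyme viperin.
Oas3: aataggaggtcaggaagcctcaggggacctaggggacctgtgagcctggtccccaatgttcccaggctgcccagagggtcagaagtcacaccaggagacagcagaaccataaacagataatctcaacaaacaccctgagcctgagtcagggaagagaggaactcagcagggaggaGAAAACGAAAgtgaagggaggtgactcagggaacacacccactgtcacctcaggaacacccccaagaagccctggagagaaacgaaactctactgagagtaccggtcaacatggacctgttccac
Oas1a: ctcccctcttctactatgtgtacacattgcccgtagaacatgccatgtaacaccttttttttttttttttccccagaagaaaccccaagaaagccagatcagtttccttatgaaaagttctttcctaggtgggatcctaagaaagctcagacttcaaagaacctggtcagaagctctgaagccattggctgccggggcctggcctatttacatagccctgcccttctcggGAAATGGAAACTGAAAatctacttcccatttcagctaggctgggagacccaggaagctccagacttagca
Rsad2: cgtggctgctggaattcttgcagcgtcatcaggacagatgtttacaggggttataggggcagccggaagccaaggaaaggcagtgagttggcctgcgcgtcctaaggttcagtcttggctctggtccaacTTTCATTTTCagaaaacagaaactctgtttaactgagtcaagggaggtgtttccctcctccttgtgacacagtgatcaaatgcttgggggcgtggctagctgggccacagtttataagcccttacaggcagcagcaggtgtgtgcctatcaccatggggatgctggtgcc
The match lies 75 bases before the start in Oas3, and 2 overlapping matches lie 20 and 14 bases before it in Oas1a. In Rsad2 it lies on the opposite strand, 120 bases before the start. Of 22 listed genes with a promoter in the table, 14 held the motif (63.6%), against 3.99% of 27025 genes. A match describes letters and does not show a bound factor. Rsad2 had 5.34 and 5.31 in C3, against 0.04 and -0.04 in C2.

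Genes of antigen presentation moved with a wider spread. Of 16 genes for MHC class I and peptide loading, 8 rose, 1 fell and 7 did not pass, with a median of 1.04, or 0.69 without C3 replicate 1. H2-D1, a classical class I heavy chain, had 0.57 and 0.40 in C3, against -2.17 and -2.39 in C2, a difference of 2.77 ± 0.28 (adjusted p 0.00046). H2-Q4 rose by 2.18 ± 0.27 and H2-K1 by 1.75 ± 0.23, and these class I genes share reads with each other, so the split between them is uncertain. Nlrc5, the transactivator of class I genes, had 2.03 and 2.67 in C3, against -2.73 and -4.03 in C2. Its difference of 5.73 ± 1.43 passed, but not without C2 replicate 2 (5.08), C3 replicate 1 (6.05) or C3 replicate 2 (5.41). The member that fell was Psmb9, an immunoproteasome subunit, at -0.60 and -1.28 in C3, against 0.78 and -0.12 in C2. Its call was lost without either C1 replicate (-1.27), C2 replicate 1 (-0.82) or C3 replicate 2 (-0.93), and the list held 3 lower members without C3 replicate 1 and 2 without C2 replicate 2. Tap2, a subunit of the peptide transporter, differed by -0.91 ± 0.17 and H2-T23, a nonclassical class I gene, by -0.77 ± 0.24, both short of a difference of 1.

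Cell division genes rose together in C3. Of 25 mitosis genes, 22 rose and none fell (median 1.51), and of 27 DNA replication genes, 19 rose and none fell (median 1.24). Both C3 libraries lay above both C2 libraries in 25 and 26 of them. The rises were moderate, so when the difference was tested against 1 rather than against 0, 4 mitosis and 6 DNA replication genes passed.

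Plk1, the kinase that drives entry into and progress through mitosis, had 3.0 and 2.54 in C3, against 0.16 and -0.16 in C2, a difference of 2.77 ± 0.34 (limma adjusted p 0.001). Ube2c, which works with the anaphase-promoting complex, had 2.13 and 2.39 in C3, against 0.03 and 0.00 in C2. Aurka, a spindle pole kinase, rose by 2.10 ± 0.17 and Cdc20, which activates the anaphase-promoting complex, by 2.00 ± 0.33. Mki67, the proliferation marker known as Ki-67, differed by 0.97 ± 0.27, just under the threshold of 1. Ccnb2, a mitotic cyclin, differed by 0.79 ± 0.27. In C1, Plk1 stood at -2.61 and -3.58, below both later passages.

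Among replication genes, Ccne2, the cyclin that starts S phase with CDK2, had 3.52 and 2.52 in C3, against -0.37 and 0.37 in C2, a rise of 3.02 ± 0.56. Rrm2, a subunit of the enzyme that makes deoxyribonucleotides, had 3.02 and 2.71 in C3, against 0.43 and 0.55 in C2, a rise of 2.38 ± 0.20. Fen1, the nuclease that trims Okazaki fragments, rose by 1.86 ± 0.18 and Gins1, a part of the replicative helicase, by 1.82 ± 0.29. Mcm7 and Rfc3, a helicase subunit and a clamp loader subunit, differed by 0.93 ± 0.24 and 0.96 ± 0.25 and did not pass.

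**Figure D3:**
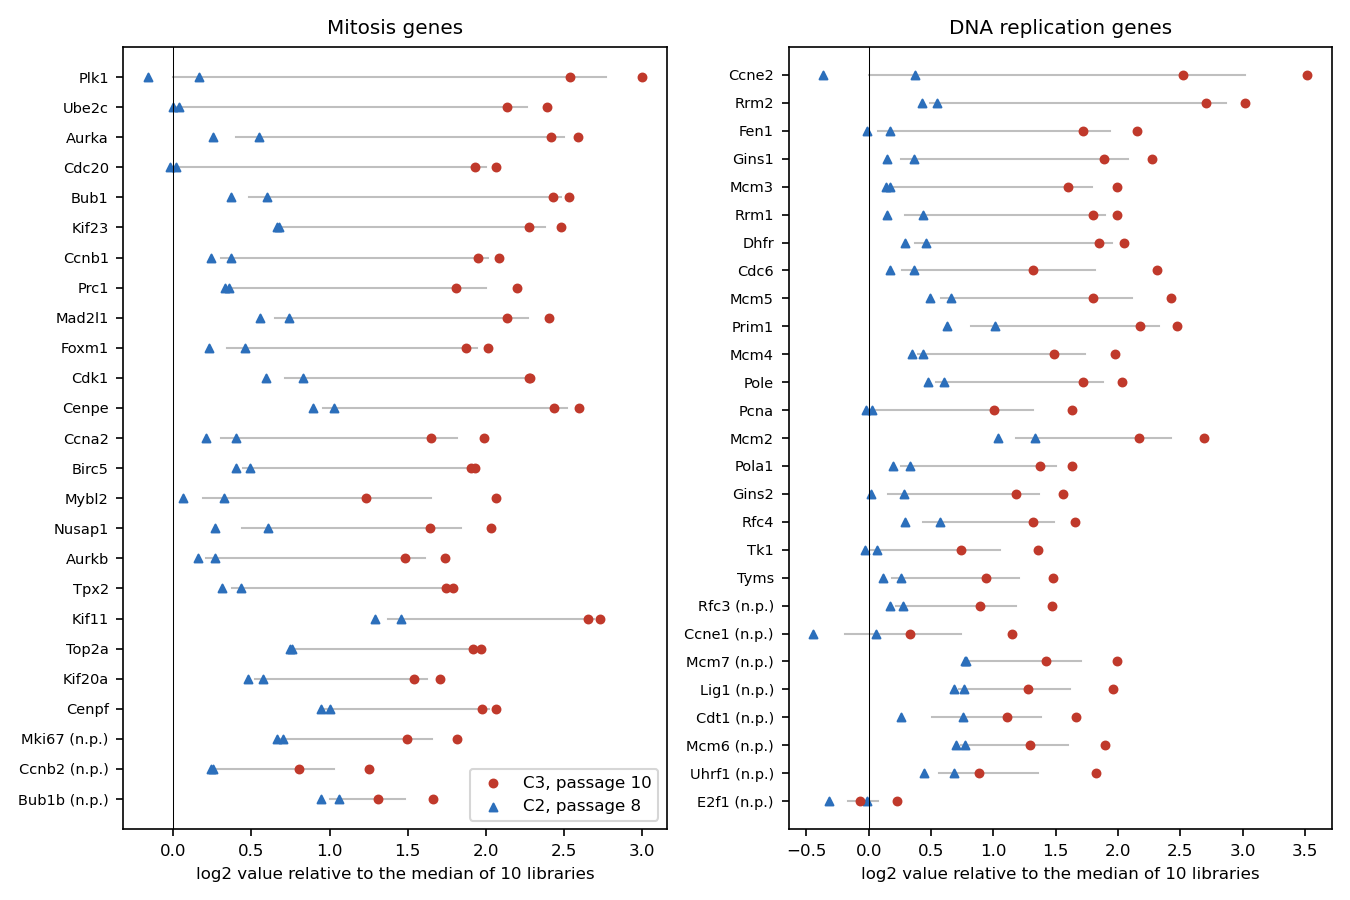
Log2 value of each mitosis gene (left, 25 genes) and DNA replication gene (right, 27 genes) relative to its median of 10 libraries, with 1 red circle per C3 library, 1 blue triangle per C2 library and a grey line between the type means. The C3 circles lie to the right of the C2 triangles in every row but E2f1; n.p. marks the 3 mitosis and 8 replication genes that did not pass.

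Promoters of 3 of these genes are shown because they hold motifs known from cell cycle promoters. TTTGAA is the cell cycle homology region, bound by the DREAM and MuvB complexes, and TTTCGCGC is a strong E2F site. Coordinates are those of RefSeq on GRCm38.p6, the window is as above and capitals mark the matches. The genes are the risers with the largest difference whose promoter held a match: Plk1 (chr7:122159185-122159484, plus strand), Ube2c (chr2:164769679-164769978, plus strand) and, for E2F, Mcm5 (chr8:75109259-75109558, plus strand), a helicase subunit gene.
Plk1: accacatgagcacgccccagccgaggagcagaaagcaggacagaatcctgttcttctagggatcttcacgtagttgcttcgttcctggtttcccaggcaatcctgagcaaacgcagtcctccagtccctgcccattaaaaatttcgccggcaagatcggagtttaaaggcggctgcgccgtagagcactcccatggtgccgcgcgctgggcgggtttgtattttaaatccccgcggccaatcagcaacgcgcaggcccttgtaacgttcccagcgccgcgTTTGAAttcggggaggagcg
Ube2c: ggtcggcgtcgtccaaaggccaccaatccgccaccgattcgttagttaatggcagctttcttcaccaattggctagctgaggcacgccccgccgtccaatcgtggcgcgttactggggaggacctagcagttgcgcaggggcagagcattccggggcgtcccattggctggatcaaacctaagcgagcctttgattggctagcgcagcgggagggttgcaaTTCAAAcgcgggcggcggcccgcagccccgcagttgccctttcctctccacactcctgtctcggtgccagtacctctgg
Mcm5: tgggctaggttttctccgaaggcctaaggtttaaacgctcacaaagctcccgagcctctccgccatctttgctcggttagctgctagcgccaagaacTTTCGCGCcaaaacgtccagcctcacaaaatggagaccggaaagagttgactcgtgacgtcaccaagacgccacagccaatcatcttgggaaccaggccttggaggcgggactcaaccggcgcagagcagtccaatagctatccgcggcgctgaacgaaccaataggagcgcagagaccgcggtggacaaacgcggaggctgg
TTTGAA lies 30 bases after the start in Plk1 and, on the opposite strand, 29 bases before it in Ube2c. TTTCGCGC lies 153 bases before the start in Mcm5, which had 2.43 and 1.80 in C3, against 0.66 and 0.49 in C2. TTTGAA was held by 13 of 20 mitosis promoters (65.0%), against 20.2% of 27025 genes, and TTTCGCGC by 6 of 21 replication promoters (28.6%), against 0.374%. The motifs were searched on both strands, and a match is a description of the sequence.

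The brakes of the cell cycle moved both ways. Of 22 CDK inhibitors and p53 targets, 7 rose, 6 fell and 9 did not pass. The median of 0.41 turned to -0.19 without C3 replicate 2 and was 0.93 without C3 replicate 1, and the number that rose was 4 without C2 replicate 1, 3 without C2 replicate 2, 2 without C3 replicate 2 and 3 where only the 4 libraries of C3 and C2 were fitted. Cdkn1c, the imprinted gene of the inhibitor p57, had 1.55 and 1.79 normalized reads in C3, against 241 and 198 in C2, a log2 difference of -7.03 ± 0.33 (adjusted p 3.5e-05). Cdkn2a, the gene of p16 and p19ARF, had log2 values of -8.45 and -7.81 in C3, against -2.90 and -3.56 in C2, a difference of -4.90 ± 0.30. Cdkn2b, the gene of p15, had 1 and 1 normalized reads in C3, against 6.12 and 13.5 in C2. The C2 mean was 9.79-fold the lowest value, but C2 replicate 1 stood at its limit of 6.12. Btg2, an antiproliferative p53 target, fell by 2.11 ± 0.44 to -2.21 and -1.17 in C3, against 0.46 and 0.38 in C2.

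The p53 targets that rose were led by Perp, a desmosome protein gene, with 4.86 and 5.70 in C3, against -0.87 and -0.04 in C2 (difference 5.74 ± 0.70). Mdm2, Ccng1 and Cdkn1a, the gene of p21, passed with differences of 1.55 ± 0.37, 1.57 ± 0.36 and 1.33 ± 0.45. C3 replicate 2 carried these calls, since without it the differences were 0.91, 0.99 and 0.58. The calls were also lost without either C2 replicate for Mdm2 (1.53 and 1.56), without C2 replicate 1 for Ccng1 (1.49), and, for Cdkn1a, without any other library but C3 replicate 1 (1.26 to 1.41). Trp53 itself differed by 0.57 ± 0.12 and Cdkn1b, the gene of p27, by -0.74 ± 0.20, and neither passed.

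Imprinted genes held several of the deepest falls. Of 21 imprinted genes tested, 12 fell, 1 rose and 8 did not pass (median -1.71), where 16.2% of all genes fell. The median was -4.12 over the 19 genes left by a minimum of 50 normalized reads and -1.10 under quantile normalization. H19, a maternally expressed RNA next to Igf2, had -1.76 and -1.57 in C3, against 8.20 and 8.13 in C2. Its difference of -9.83 ± 0.22 (limma adjusted p 2.0e-06) was the most negative among all called genes. In the other types H19 lay between -3.65 and 1.36, so C2 stood alone on the high side. Igf2, the paternally expressed growth factor of the same locus, had 0.22 and -0.31 in C3, against 7.04 and 6.94 in C2, a difference of -7.04 ± 1.27.

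The RNAs of the Dlk1 to Meg3 cluster were high in C2 and low in C3. Meg3 had -7.32 and -7.72 in C3, against 0.66 and 0.46 in C2, a difference of -8.08 ± 0.44, and Rian had -6.04 and -7.02 in C3, against 0.84 and 1.22 in C2, a difference of -7.56 ± 0.42. Here it was C3 that stood alone, since the 6 libraries of C1, B and A lay between -0.32 and 1.14 for Meg3 and between -0.45 and 1.02 for Rian. The gene that rose was Peg3, a paternally expressed zinc finger gene, with 2.76 and 3.47 in C3, against -1.01 and -1.03 in C2, a difference of 4.13 ± 0.51. Without C3 replicate 2 a second imprinted gene rose. The Peg3 values of C1 were 3.0 and 2.79, close to those of C3. Gnas, the stimulatory G protein gene, and Sgce differed by -0.58 ± 0.13 and -0.60 ± 0.29 and did not pass.

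In the insulin-like growth factor axis, 12 of 15 genes fell, none rose and 3 did not pass (median -2.99), and 6 were called lower under quantile normalization and 4 when tested against a difference of 1. Besides Igf2, Pappa, the protease that frees IGF from binding proteins, had -3.53 and -3.91 in C3, against 0.02 and -0.02 in C2, a difference of -3.72 ± 0.52. Stc1, which inhibits that protease, had -2.13 and -3.50 in C3, against 1.01 and 1.09 in C2. Igfbp5, an IGF-binding protein gene, had 1.04 and 1 normalized reads in C3, against 12.2 and 22.8 in C2. Their log2 differences were -3.87 ± 1.19 and -4.04 ± 1.27, and the calls were less firm. That of Stc1 was lost without any 1 library of C3, C2 or B (-4.55 to -3.18), and that of Igfbp5 without any 1 library of C3, C2, C1 or B (-4.48 to -3.59). The receptors did not pass: Igf1r differed by 0.35 ± 0.14 and Insr by -0.49 ± 0.16.

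Genes of the connective tissue matrix fell in C3. Of 32 fibroblast and matrix genes, 25 fell, 1 rose and 6 did not pass (median -2.67). Col6a3, a collagen VI chain, had -6.98 and -7.54 in C3, against 0.44 and 0.38 in C2, a difference of -7.67 ± 0.58 (limma adjusted p 0.00017). Postn, a matrix protein of activated fibroblasts, had -5.73 and -6.71 in C3, against -0.23 and 0.23 in C2, a difference of -6.22 ± 0.38. Mfap4, a microfibril protein gene, had 1 and 1 normalized reads in C3, against 45.5 and 47.6 in C2, and was at least 46.6-fold lower. Lum, the gene of the keratan sulfate proteoglycan lumican, had -1.71 and -3.86 in C3, against 2.54 and 2.81 in C2. In C1, Col6a3 was already at -9.17 and -7.17, close to C3.

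The fibrillar collagens and fibronectin, given here for their role, fell too. Col1a1 had -0.67 and -1.17 in C3, against 1.75 and 1.23 in C2 (difference -2.41 ± 0.24), and Col1a2 differed by -3.72 ± 0.32. Col3a1 fell by 3.14 ± 0.43 and Fn1 fell by 3.25 ± 0.21. Pdgfra, the receptor that marks many fibroblasts, had -2.79 and -3.47 in C3, against 0.35 and 0.38 in C2, a difference of -3.50 ± 0.23. Tcf21 and Prrx1, transcription factors of heart and limb fibroblasts, fell, with differences of -2.71 ± 0.41 and -2.63 ± 0.23. The 1 member that rose was S100a4, a calcium-binding protein gene, with a difference of 1.98 ± 0.44, which did not pass without C2 replicate 1 (1.86) or C3 replicate 2 (1.96), while 2 members rose without C2 replicate 2. Vim, the gene of the filament protein vimentin, had 0.03 and -0.03 in C3, against -0.54 and -0.62 in C2, and did not pass.

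**Figure D4:**
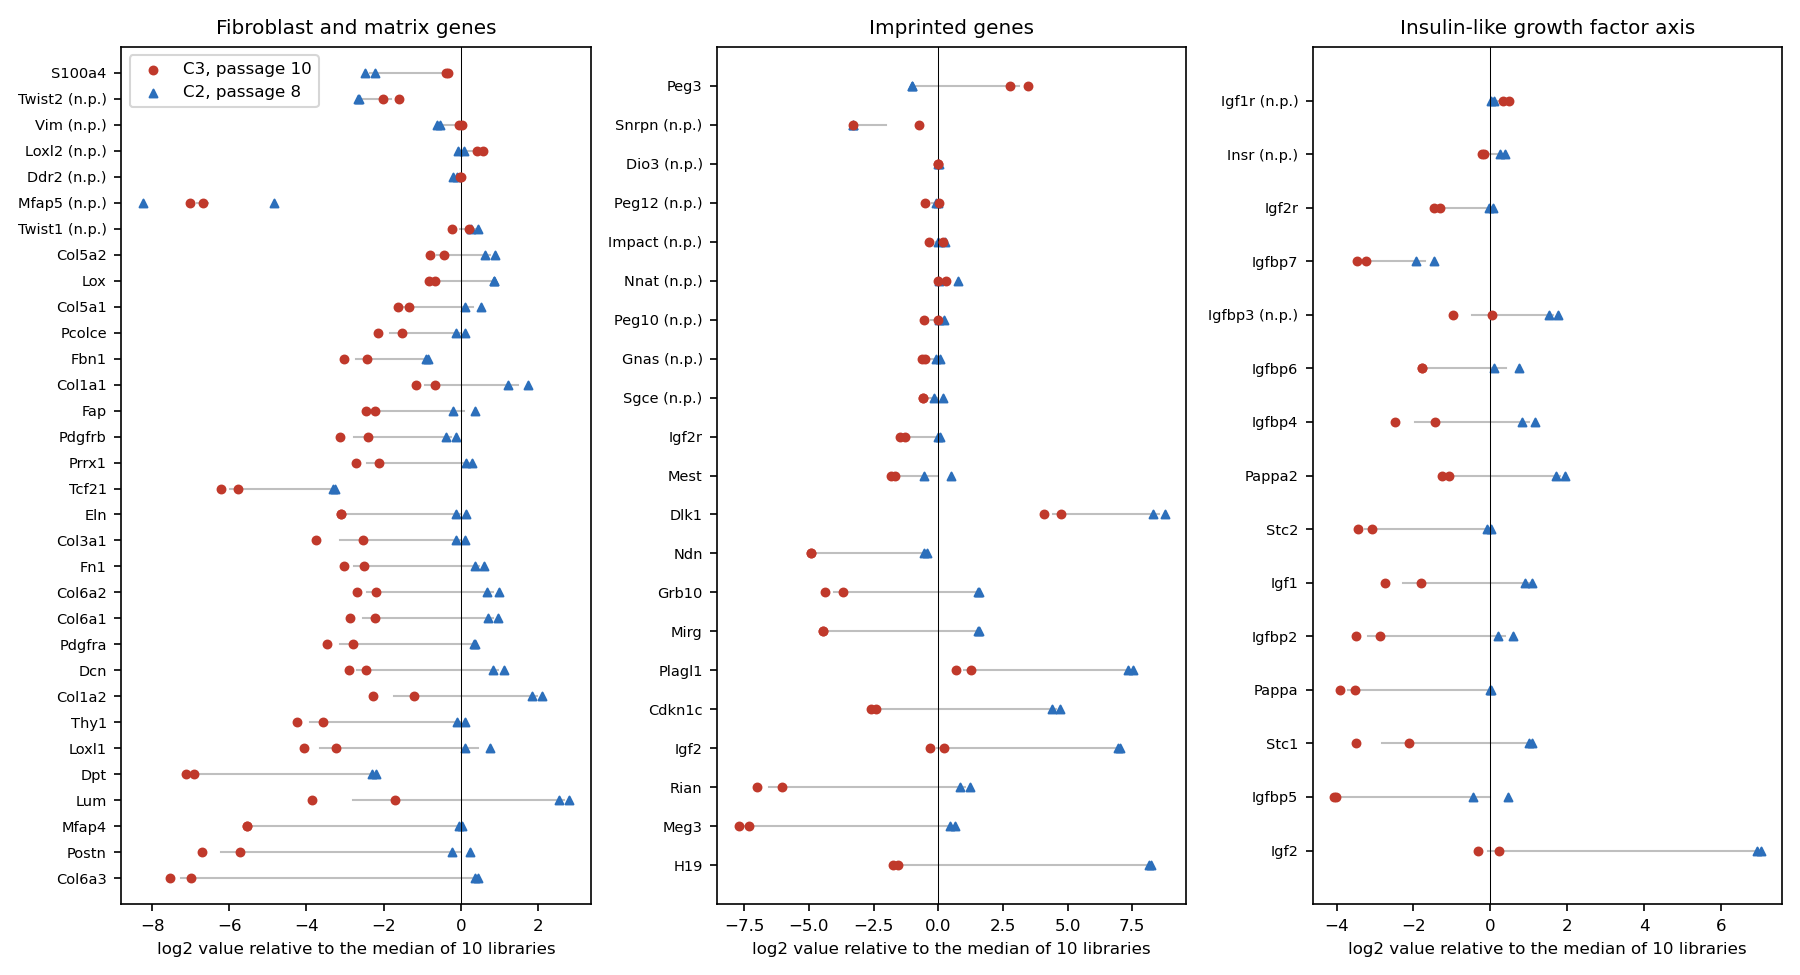
Log2 value relative to the median of 10 libraries for the fibroblast and matrix genes (left), imprinted genes (middle) and insulin-like growth factor genes (right), with 1 red circle per C3 library, 1 blue triangle per C2 library and a grey line between the type means. In the left panel 25 of 32 genes were called lower in C3, and H19 in the middle panel shows the widest gap, with C3 at -1.76 and -1.57 and C2 at 8.20 and 8.13; n.p. marks genes that did not pass.

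Enzymes and other proteins of the matrix followed the same side. Of 26 matrix proteases and inhibitors, 16 fell, 2 rose and 8 did not pass (median -1.67). Mmp3, stromelysin-1, had -6.49 and -6.78 in C3, against -1.87 and -1.63 in C2, a difference of -4.89 ± 0.23, and Mmp2, gelatinase A, fell by 3.86 ± 0.34. Serpine2, an inhibitor of thrombin and plasminogen activators, fell by 4.75 ± 0.49. Timp4 had 1 and 1 normalized reads in C3, against 20.4 and 11.4 in C2, where the mean was 15.9-fold the lowest value. Among the members that rose was Plaur, the urokinase receptor, with 2.01 and 2.49 in C3, against -0.62 and -0.63 in C2, a rise of 2.88 ± 0.48.

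Of 23 matricellular proteins and proteoglycans, 17 fell, 2 rose and 4 did not pass (median -2.36), and 9 were lower when tested against a difference of 1. The median was -1.19 with 14 lower under quantile normalization, and without C3 replicate 2, 13 fell and 1 rose. Smoc2, a secreted calcium-binding protein gene, had -4.98 and -4.73 in C3, against 1.13 and 1.25 in C2, a difference of -6.05 ± 0.21. The proteoglycan genes Fmod and Prelp fell, with differences of -5.65 ± 0.48 and -5.50 ± 0.53, and Sparcl1 fell by 5.60 ± 0.58. Ctgf, a known target of YAP and TGF-beta, had 0.92 and 1.44 in C3, against -0.96 and -1.16 in C2, and rose by 2.24 ± 0.19. Cyr61, its relative, rose by 1.12 ± 0.23, and its difference was 0.97 without C3 replicate 2.

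In the complement list, 2 of whose gene symbols are also the names of the cell types, 8 of 14 genes fell, 2 rose and 4 did not pass (median -1.78). With quantile normalization the median was -0.51, with 3 higher and 6 lower. The gene of complement component 3 had -3.81 and -4.35 in the C3 cells, against 1.92 and 1.79 in the C2 cells, a difference of -5.93 ± 0.35. C1s, a protease of the first component, fell by 3.83 ± 0.24, Serping1, its inhibitor, fell by 3.58 ± 0.27, and C4b, which has the near-identical copy C4a, fell by 3.46 ± 0.30. The gene of complement component 2 rose, with 4.22 and 3.59 in the C3 cells, against 0.31 and -0.31 in the C2 cells (difference 3.9 ± 0.29). C3ar1, an anaphylatoxin receptor, passed at 5.90 ± 1.39 but not without C2 replicate 1 (5.59), C3 replicate 1 (6.10) or C3 replicate 2 (5.69).

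Keratins and mesothelial proteins were among the genes that rose. Of 14 epicardial and mesothelial genes, 6 rose, 2 fell and 6 did not pass (median 0.53, 0.32 with a minimum of 50 normalized reads). Krt18, a keratin of simple epithelia, had 6.41 and 6.43 in C3, against 0.67 and 1.03 in C2, a difference of 5.57 ± 0.44 (adjusted p 0.00021). Krt19 had 5.26 and 5.54 in C3, against -0.65 and -0.14 in C2, a difference of 5.79 ± 0.82. Msln, the gene of mesothelin, a surface protein of the mesothelium, had 5.03 and 5.12 in C3, against 0.85 and 0.54 in C2. Upk3b, a uroplakin of mesothelial cells, had 4.21 and 4.37 in C3, against 0.29 and 0.03 in C2. They rose by 4.38 ± 0.44 and 4.13 ± 0.20. The fallers were Tcf21, given above, and Bnc1, a basonuclin gene, with a difference of -1.65 ± 0.19. Tbx18, an epicardial transcription factor gene, differed by 0.75 ± 0.18 and Lrrn4 by -0.99 ± 0.18, and neither passed. Krt18 lay between -3.93 and 0.20 in C1, B and A.

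The epithelial list did not move as one. Of 5 genes tested, 1 rose, 3 fell and 1 did not pass (median -1.04, or 0 where the floor, the lowest value of 1 normalized read, was raised to 8). Krt14, a basal keratin, had 112 and 139 normalized reads in C3, against 2.04 and 2.59 in C2, where it was under the limit of 3 reads. Krt7, a simple keratin, went the other way, with -0.76 and -1.47 in C3, against 5.16 and 5.03 in C2, a difference of -6.21 ± 0.92. Tjp3, a tight junction gene, was called lower at 1 and 1 normalized reads in C3, against 2.05 and 2.07 in C2, which is under the limit. Cdh3, the gene of P-cadherin, differed by -1.25 ± 0.30, and its call was lost without C2 replicate 1 (-1.15) or C3 replicate 2 (-0.97). Of the defining genes, Krt5 and Esrp1 were listed at 0 and Epcam was under the limit in both types. Among 14 epithelial-mesenchymal regulators, 3 fell and none rose (median -0.38, -0.17 under quantile normalization and -0.65 without C3 replicate 1), with 1 higher without C3 replicate 2. The 3 were Cdh11, a mesenchymal cadherin (-4.07 ± 0.31), Prrx1 and Sox4 (-2.10 ± 0.26), while Zeb1 differed by -0.94 ± 0.12 and Twist2 by 0.84 ± 0.22 and did not pass.

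In 4 lists of other connective tissue lineages no gene was called higher. Of 8 chondrocyte and bone genes, 6 fell and none rose (median -2.70), with 3 lower without C2 replicate 1. Mgp, the matrix Gla protein that inhibits calcification, had -4.44 and -4.79 in C3, against -0.08 and 0.08 in C2, a difference of -4.62 ± 0.23, and Matn2, a matrilin gene, fell by 3.46 ± 0.38. Of 6 adipocyte genes, 4 fell and none rose (median -1.73): Lpl, lipoprotein lipase, had -3.92 and -4.91 in C3, against 0.77 and 1.01 in C2, a difference of -5.30 ± 0.33. Fabp4, a fatty acid carrier, fell by 3.56 ± 0.36 and Pparg, the adipocyte master regulator, fell by 2.13 ± 0.20. Of 6 pericyte genes, 4 fell and none rose (median -1.91). The median was -0.76 with 2 lower under quantile normalization and -0.99 with the floor raised to 8 normalized reads. Mcam, an adhesion molecule, fell by 3.57 ± 0.25 and Notch3 fell by 3.54 ± 0.40, while Cspg4 was under the limit in both types and Anpep fell by 1.98 ± 0.53. The call of Anpep was lost without any 1 of the 4 libraries (-2.05 to -1.92), and its difference was 0.05 under quantile normalization. The pericyte count was 2 without C2 replicate 1, C3 replicate 1 or C3 replicate 2. Of 15 smooth muscle and contractile genes, 7 fell, none rose and 8 did not pass (median -1.58), and 4 fell without C2 replicate 2. That median was -0.16 with the floor raised to 8 normalized reads, -0.89 with a minimum of 50, -0.86 without C3 replicate 2 and -1.03 without C2 replicate 2. Des and Itga8, both among the 7, were under the limit in both types. Mylk, the myosin light chain kinase, had 0.05 and -0.77 in C3, against 5.00 and 4.88 in C2, a difference of -5.30 ± 0.39, and Tagln, the gene of SM22, fell by 2.60 ± 0.50.

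Of 8 cardiomyocyte genes tested, 2 rose, 1 fell and 5 did not pass. Their median was 0.15, or -0.02 without C2 replicate 1, 0.43 without C3 replicate 1 and -0.12 with a minimum of 50 normalized reads. Nppb, the natriuretic peptide BNP, had 134 and 296 normalized reads in C3, against 4.08 and 1 in C2. Myl7, the atrial myosin light chain, had 50.4 and 41.4 normalized reads in C3, against 1 and 1 in C2, and was at least 7.49-fold higher against the C2 limit. Tnni3, cardiac troponin I, had -1.36 and -0.95 in C3, against 2.11 and 1.56 in C2, a difference of -2.99 ± 0.27. The myosin heavy chains Myh6 and Myh7 were listed at 0 in every library. Nppa, the atrial peptide ANP, overlapped between the types. Over the 3 members of known level the summed normalized reads were 185.9 and 338.5 in C3, against 6.08 and 3 in C2. Nppb and Myl7 make up nearly all of the C3 sum, so it restates these 2 risers. It leaves out Tnni3 and the other members of unknown level. Of 14 cardiac transcription factors, 5 fell and none rose (median -0.95, -0.58 with the floor raised to 8 normalized reads). Mef2c had -5.24 and -4.36 in C3, against 0.11 and -0.11 in C2, a difference of -4.80 ± 0.40, and Tbx2 and Gata6 fell, with differences of -2.94 ± 0.21 and -1.35 ± 0.25. Tbx5 was under the limit in both types.

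Markers of blood and vessel cells, which a sorted culture could still hold, were compared as well. Of 30 macrophage and monocyte genes, 1 rose, 1 fell and 28 did not pass. The median was -0.26, or 0.01 under quantile normalization, -0.52 with a minimum of 50 normalized reads, -0.47 without C3 replicate 1, -0.10 without C3 replicate 2, -0.12 without C2 replicate 2 and 0 with the floor raised to 8. Over the 11 of known level, summed normalized reads were 17.6 and 17.7 in C3, against 15.1 and 16.3 in C2, while B had 33850 and 32900. These 11 were picked by their values, since a readable level requires floor values in some libraries and the filter requires higher ones elsewhere. The contrast with B is therefore largely set by that choice. The sum leaves out the members of unknown level, such as Csf1r and Lyz2, and cannot give the total of the list in C3 or C2. Fcgr1, Tyrobp and Aif1 were among 8 genes under the limit in both types. Maf, a transcription factor gene also used outside macrophages, had -1.90 and -2.62 in C3, against 1.28 and 1.39 in C2, a difference of -3.60 ± 0.37. Clec7a, the receptor dectin-1, passed at 4.53 ± 1.37 but not without any 1 library of C3, C2, C1 or B (3.99 to 5.08). Without either A replicate 2 genes of the list rose and 3 fell. Of 18 genes for other white blood cells, 1 was tested, Cd4, which was under the limit in both types.

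Of 12 endothelial genes, 1 rose, 2 fell and 9 did not pass (median -0.04, 0.01 under quantile normalization -0.14 without C2 replicate 1 and -0.18 with a minimum of 50 normalized reads), with 2 higher without either A replicate. Kdr, a VEGF receptor, had 30.1 and 49.0 normalized reads in C3, against 6.12 and 5.18 in C2, and its call was lost without C3 replicate 2 (2.42). Egfl7 and Plvap fell, with differences of -2.04 ± 0.30 and -3.25 ± 0.55, while Pecam1 and Cdh5 were under the limit in both types. The endothelial shares called, 8.33% higher and 16.7% lower, were near the 11.6% and 16.2% of all genes. Of 10 Schwann and neural crest genes, 1 rose, 2 fell and 7 did not pass (median -0.28, -0.56 with a minimum of 50 normalized reads and -0.15 with the floor raised to 8). Their shares, 10% higher and 20% lower, were also near those of all genes. S100b was at 1 and 1 normalized reads in C3, against 12.2 and 7.25 in C2, where the mean was 9.75-fold the lowest value. Gap43, a growth cone protein gene, fell by 1.91 ± 0.34. Erbb3 passed at 3.63 and 3.47 normalized reads in C3, against 1 and 1.04 in C2, but not without any 1 of the 4 libraries (1.77 to 1.83 on the log2 scale). In C2 Erbb3 was under the limit of 3 reads, and both its C3 values lay below the limit of 6.12 in C2 replicate 1. Of 9 haematopoietic progenitor genes, 1 rose, 2 fell and 6 did not pass (median -0.49, -0.28 under quantile normalization and -0.32 with the floor raised to 8). The progenitor shares were 11.1% higher and 22.2% lower, beside the same shares of all genes. Meis1, a homeobox gene, fell by 1.87 ± 0.19. Ly6a, the gene of Sca-1, passed at 1.77 ± 0.55 but not without C2 replicate 1 (1.22), C3 replicate 1 (1.11) or any 1 library of C1 or B (1.77).

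Stem cell and patterning genes showed few calls. Of 12 pluripotency genes, 2 were tested: Klf4 rose by 1.23 ± 0.18 and Myc, at 0.78 and 0.40 in C3, against 0.49 and 0.28 in C2, did not pass, while Pou5f1 was listed at 0. Of 20 HOX cluster genes, which record position along the body axis, 1 rose and 19 did not pass (median -0.26, -0.01 without C3 replicate 2 and -0.16 without C2 replicate 1), with a median of -0.58, 1 higher and 3 lower under quantile normalization. Without either A replicate 2 rose and 1 fell, and without either B replicate 2 rose. The riser, Hoxa10, had 83.4 and 64.0 normalized reads in C3, against 4.08 and 2.07 in C2, where it was under the limit. It lay between -0.43 and 0.43 on the log2 scale in C1, B and A. Hoxd4 had 55.6 and 53.4 normalized reads in C3, against 102 and 69.0 in C2, and Hoxb3 differed by -0.79 ± 0.24, and neither passed.

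Of 30 growth factors and receptor kinases, 7 rose, 9 fell and 14 did not pass (median -0.58). That median was 0.09 under quantile normalization, -0.12 without C2 replicate 1 and -0.32 with the floor raised to 8 normalized reads. The number that rose was 4 without C2 replicate 1, C3 replicate 1 or C3 replicate 2. Ereg, epiregulin, had 0.60 and 1.63 in C3, against -3.93 and -2.68 in C2, a difference of 4.42 ± 0.50. Tgfa, TGF-alpha, had 2.35 and 2.83 in C3, against -0.42 and -1.02 in C2, a difference of 3.31 ± 0.52. Areg, amphiregulin, had 14.7 and 38.4 normalized reads in C3, against 2.04 and 1 in C2, and its call was lost without any 1 library of C3, C2, C1 or B (log2 differences of 3.36 to 4.75). Fgf18 rose by 4.22 ± 0.72. Hgf, the ligand of the receptor Met, had -5.51 and -6.16 in C3, against -0.20 and 0.06 in C2, a difference of -5.77 ± 0.44, while Met differed by 0.85 ± 0.20 and did not pass. Figf, the gene of VEGF-D, and Nrg1, neuregulin 1, fell, with differences of -2.69 ± 0.32 and -2.68 ± 0.46.

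In TGF-beta and BMP signalling, 4 of 29 genes rose, 7 fell and 18 did not pass (median -0.53, -0.11 under quantile normalization), and 2 rose without C2 replicate 1, C2 replicate 2 or C3 replicate 2. The shares called were 13.8% higher and 24.1% lower, beside 11.6% and 16.2% of all genes. Nog, the BMP antagonist noggin, had 67.4 and 61.9 normalized reads in C3, against 1 and 1 in C2, and was at least 10.6-fold higher against the C2 limit. Inhba, the activin A subunit, had -0.09 and 0.02 in C3, against -1.23 and -1.36 in C2, a rise of 1.26 ± 0.23. Fst, the activin antagonist follistatin, passed at 1.37 ± 0.41 but not without C3 replicate 2 (0.91), either C2 replicate (1.41 and 1.33) or either C1 replicate (1.37). Bmp6 passed at 3.31 ± 0.94 but not without any 1 of the 4 libraries (2.87 to 3.75). Ltbp2, a latent TGF-beta binding protein gene, had -3.38 and -3.91 in C3, against 0.82 and 0.43 in C2, a difference of -4.27 ± 0.67. Inhbb fell by 3.22 ± 0.45, the coreceptor Tgfbr3 fell by 2.28 ± 0.16 and Bambi, a pseudoreceptor, fell by 2.05 ± 0.34.

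In Wnt signalling, 2 of 29 genes rose, 8 fell and 19 did not pass (median -0.76, -0.48 without C3 replicate 2). Sfrp2, a secreted Wnt modulator, had 1 and 1 normalized reads in C3, against 288 and 279 in C2, at least 283-fold lower. C1 was also near the lowest value for Sfrp2, at log2 values of -2.35 and -2.36, beside -2.36 and -2.36 in C3. Dkk3 fell by 4.37 ± 0.25 and Nkd1, a feedback inhibitor, fell by 4.16 ± 0.75. Wnt16, a ligand gene, had 28.3 and 15.6 normalized reads in C3, against 155 and 151 in C2. Ror1, a Wnt5a receptor gene, rose by 1.80 ± 0.31, and Wnt4 by 1.08 ± 0.23, which was 0.85 without C3 replicate 1.

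Among cytokines and chemokines, 3 of 21 genes rose, 3 fell and 15 did not pass (median -0.11, 0.43 under quantile normalization and 0 without C3 replicate 2 or with the floor raised to 8 normalized reads). The shares called, 14.3% higher and 14.3% lower, were near the 11.6% and 16.2% of all genes. Ccl2 and Ccl7, neighbouring monocyte attractants, had -0.31 and -0.08, and -0.84 and -0.75, in C3, against -2.39 and -2.22, and -2.89 and -2.05, in C2. They rose by 2.10 ± 0.37 and 1.68 ± 0.32. Ccl5 had 25.6 and 15.4 normalized reads in C3, against 4.08 and 2.07 in C2, and its call was lost without C2 replicate 2, C3 replicate 1 or C3 replicate 2 (2.29, 2.41 and 3.14 on the log2 scale). Cxcl12, which retains stem cells in their niche, had -1.18 and -1.92 in C3, against 2.08 and 2.12 in C2, a difference of -3.65 ± 0.24, and Cx3cl1, fractalkine, fell by 3.04 ± 0.45. Il33 fell by 2.21 ± 0.53, but not without either C2 replicate (-2.32 and -2.11) or C3 replicate 2 (-1.62). Without either A replicate, 5 genes fell.

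Of 24 integrins and cadherins, 4 rose, 11 fell and 9 did not pass (median -0.74, -0.48 under quantile normalization and -0.35 with the floor raised to 8 normalized reads). Itga6, a laminin receptor subunit, had 1.41 and 1.61 in C3, against -2.42 and -2.34 in C2, a rise of 3.89 ± 0.43. Itgb7 and the collagen receptor subunit Itga2 rose by 3.71 ± 0.52 and 3.27 ± 0.48. Itga3, another laminin receptor subunit, passed at 2.08 ± 0.49 but not without C2 replicate 2 (1.84), C3 replicate 1 (2.04) or C3 replicate 2 (2.13). Itga11, a collagen receptor subunit of fibroblasts, had -4.70 and -5.40 in C3, against 0.40 and 0.47 in C2, a difference of -5.49 ± 0.37. Itgb8 and Itgb3 fell, with differences of -3.83 ± 0.39 and -3.58 ± 0.61. Itgb1, the common beta subunit, differed by 0.77 ± 0.13, short of the threshold.

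Of 21 immediate early genes, 8 fell, 2 rose and 11 did not pass (median -0.62, or -0.29 with 6 lower under quantile normalization and -0.40 without C2 replicate 1). The zinc finger factor Egr2 had -3.75 and -3.23 in C3, against 0.32 and 0.18 in C2, a difference of -3.74 ± 0.59, and Egr1 fell by 2.59 ± 0.26. The orphan nuclear receptors Nr4a1 and Nr4a3 fell, with differences of -3.64 ± 0.37 and -3.43 ± 0.34. Fosl1, an AP-1 subunit, rose by 2.39 ± 0.51, but not without C2 replicate 2 (1.98) or C3 replicate 2 (2.03), and the other riser was Klf4. Dusp1, a MAP kinase phosphatase, differed by 1.97 ± 0.69 and did not pass.

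Of 27 antioxidant and glutathione genes, 7 rose (25.9%, against 11.6% of all genes), 5 fell (18.5%, near the 16.2% of all genes) and 15 did not pass. The median was 0.27, or 0.08 without C3 replicate 1, and 2 fell under quantile normalization. Txnrd1, thioredoxin reductase, had 1.08 and 1.10 in C3, against -0.90 and -0.88 in C2, and Txn1, its substrate, had 1.25 and 0.96 in C3, against -0.61 and -0.27 in C2. They rose by 1.98 ± 0.40 and 1.55 ± 0.18, and Gclc, the first enzyme of glutathione synthesis, by 1.34 ± 0.26. Nqo1, a quinone reductase, passed at 2.07 ± 0.54 but not without any 1 of the 4 libraries (1.96 to 2.17). The glutathione transferases Gstt1, Gsta3 and Gstm1 fell, with differences of -3.34 ± 0.46, -2.87 ± 0.38 and -1.97 ± 0.23. Gpx3, plasma glutathione peroxidase, fell by 2.47 ± 0.16 as deposited and differed by 0.06 under quantile normalization. When tested against a difference of 1, none of the risers and 4 of the fallers passed.

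Of 15 heat shock genes, 5 rose, 2 fell and 8 did not pass (median 0.88). Hsp90aa1, the inducible HSP90, had 1.64 and 1.63 in C3, against -0.15 and 0.15 in C2, a rise of 1.63 ± 0.14. Hspb1 and Hsph1 rose by 1.43 ± 0.24 and 1.39 ± 0.22. Hspb8 rose by 1.11 ± 0.19, or 0.86 without C3 replicate 1, where 3 members rose. The inducible HSP70 genes Hspa1a and Hspa1b, near-identical copies, fell, with differences of -2.11 ± 0.45 and -1.83 ± 0.47, and neither call held without C2 replicate 1 (-1.81 and -1.61) or C3 replicate 2 (-1.81 and -1.43). Of 24 genes of the amino acid stress response, 3 rose, 6 fell and 15 did not pass, and 3 of 24 is 12.5%, near the 11.6% of all genes. The median was -0.59, or -0.25 with 5 higher without C3 replicate 1 and -0.29 with 7 higher under quantile normalization. The number that fell was 3 where only the 4 libraries of C3 and C2 were fitted, 2 without C2 replicate 1, 3 without C2 replicate 2 and 3 without C3 replicate 1. Psat1, an enzyme of serine synthesis, had 2.58 and 2.53 in C3, against -0.01 and 0.01 in C2, a rise of 2.55 ± 0.23, and the amino acid carriers Slc7a5 and Slc7a1 rose by 1.38 ± 0.26 and 1.25 ± 0.19. Pycr1, an enzyme of proline synthesis, had -1.52 and -1.13 in C3, against 1.15 and 1.27 in C2, a difference of -2.54 ± 0.27, and the transcription factor Cebpb fell by 2.37 ± 0.46.

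Among lists of core metabolism, those of the respiratory chain, cholesterol synthesis and the lysosome held few called genes. Of 29 respiratory chain subunits, 1 rose and 28 did not pass (median 0.14). The riser was Cycs, cytochrome c, with 1.79 and 1.59 in C3, against -0.31 and -0.01 in C2, a difference of 1.85 ± 0.16. Of 23 cholesterol synthesis genes, 1 rose, 1 fell and 21 did not pass (median -0.16, 0.16 without C3 replicate 1, where 2 rose and none fell, and -0.30 without C3 replicate 2). Tm7sf2, a sterol reductase gene, passed at -1.76 ± 0.41 but not without C2 replicate 1 (-1.60) or C3 replicate 1 (-1.30). Of 26 genes of glycolysis and the hypoxia response, 5 fell and none rose (median -0.49, -0.28 under quantile normalization and -0.32 without C3 replicate 1). The share called lower, 19.2%, was near the 16.2% of all genes, while 11.6% of all genes were called higher. Car9, carbonic anhydrase 9, a hypoxia target, had -0.20 and -0.03 in C3, against 3.03 and 3.42 in C2, a difference of -3.34 ± 0.54, and Ankrd37, Adm and Pdk1 fell, with differences of -2.18 ± 0.33, -2.04 ± 0.36 and -1.59 ± 0.30. The glycolytic enzyme genes Gpi1 and Pfkl differed by -0.82 ± 0.16 and -0.97 ± 0.22 and did not pass. Of 22 lysosome genes, 2 fell and none rose (median -0.39, under 0.01 in size with quantile normalization, where 1 rose). The fallers were the cathepsins Ctsk and Ctsh, with differences of -4.41 ± 0.34 and -3.79 ± 0.21.

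Genes that write or read chromatin marks were also called in both directions. Of 23 DNA methylation and polycomb genes, 4 rose, 7 fell and 12 did not pass (median -0.68, -0.43 without C3 replicate 2). Tet1, which oxidizes 5-methylcytosine, had -1.57 and -1.33 in C3, against 2.89 and 2.88 in C2, a difference of -4.33 ± 0.45. Dnmt3l, a cofactor of de novo methylation, fell by 3.0 ± 0.30, the de novo methyltransferase Dnmt3a fell by 1.89 ± 0.24, and Cbx7, a polycomb reader, fell by 1.68 ± 0.16. Ezh2, the methyltransferase of polycomb repressive complex 2, had 2.77 and 2.58 in C3, against 1.40 and 1.57 in C2, a rise of 1.19 ± 0.21. Its partner Eed rose by 1.24 ± 0.16 and Phc2 by 1.19 ± 0.13. Dnmt1, the maintenance methyltransferase, rose by 1.20 ± 0.26, but not without C3 replicate 1 (1.02). Suz12, the third core subunit of that complex, differed by 0.75 ± 0.16 and did not pass.

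Beyond the lists, the 12 largest rises and 12 largest falls with clear gene names were examined. Plac9, a small secreted protein gene, had 1.96 and 2.29 in C3, against -5.29 and -5.72 in C2, a difference of 7.63 ± 0.37, but near-identical copies of it may share its reads. Vat1l had 4.52 and 4.57 in C3, against -3.35 and -2.33 in C2. S1pr5, a sphingosine-1-phosphate receptor, had 181 and 116 normalized reads in C3, against 1 and 1.04 in C2. Tspan8, a tetraspanin, had 835 and 923 normalized reads in C3, against 10.2 and 4.59 in C2, a log2 difference of 7.0 ± 0.34. Selp, the adhesion molecule P-selectin (6.93 ± 0.24), Mpzl2 (6.81 ± 0.57) and Klra4 rose as well, Klra4 being a receptor gene of the Ly49 family whose members share reads (6.73 ± 0.93). Fam71f1 had 67.1 and 148 normalized reads in C3, against 1 and 1 in C2, and was at least 17.6-fold higher against the C2 limit. Oas3, Oas1a, Oasl1 and Nppb complete the 12.

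Among the 12 largest falls, Ace, the angiotensin-converting enzyme, had -8.49 and -8.02 in C3, against 1.59 and 1.42 in C2, a difference of -9.76 ± 0.36 (limma adjusted p 1.3e-05). Pdlim3, a muscle Z-disc protein gene, had -5.01 and -6.38 in C3, against 3.92 and 3.78 in C2, and Steap4, a metalloreductase gene, had -4.34 and -5.84 in C3, against 3.46 and 3.55 in C2. They fell, with differences of -9.54 ± 0.75 and -8.60 ± 0.74. Col15a1, a basement membrane collagen, had -7.54 and -8.64 in C3, against 0.04 and -0.04 in C2, a difference of -8.09 ± 0.34. Ahsg, the gene of fetuin-A, fell by 7.90 ± 0.92, St6gal1, a sialyltransferase gene, fell by 7.55 ± 0.14 and Fndc1 fell by 7.12 ± 0.15. H19, Sfrp2, Meg3, Col6a3 and Rian were given above.

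Genes of chromosome 4 stood apart from those of the other chromosomes. The median difference of its 871 tested genes was 0.484, with 26.4% called higher and 10.8% called lower. The 19 other chromosomes, without Y, had medians of -0.131 to 0.0657 and 8.02% to 15.8% of genes called higher. They had 10.2% to 21.2% called lower, a range that holds the share of chromosome 4. The shift ran along the whole chromosome, since in windows of 20 Mb the medians of all 8 windows lay between 0.284 and 0.597. Library by library, the median log2 value of chromosome 4 genes was 0.130 and 0.0973 in C3, against -0.201 and -0.187 in C2. C1 was lower than both, at -0.442 and -0.414, but C1 was lower still for chromosomes 3 (-0.550 and -0.526) and 7 (-0.565 and -0.566), so its low value is not particular to chromosome 4. B had 0.194 and 0.213 and A had 0.231 and 0.291. DNA copy number was not measured.

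**Figure D5:**
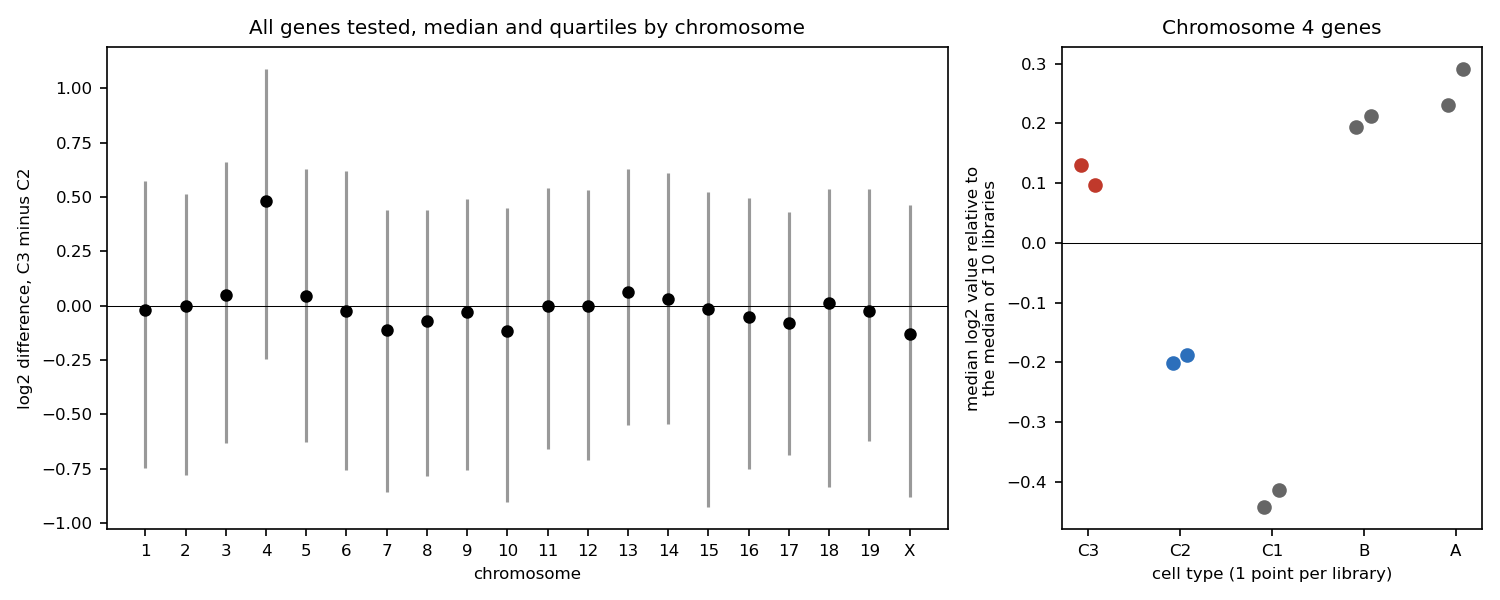
Left, the log2 difference C3 minus C2 of all genes tested on each chromosome except Y, as the median (point) and quartiles (bar); chromosome 4 has a median of 0.484, against -0.131 to 0.0657 on the others. Right, the median log2 value of chromosome 4 genes in each library, 1 point per library, with C3 at 0.130 and 0.0973 above C2 at -0.201 and -0.187.

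On the same chromosome, 3 neighbouring genes were low in C3. They are Mtap, an enzyme of the methionine salvage pathway (GRCm38 chr4:89137370-89181090), Cdkn2a (chr4:89274473-89294619) and Cdkn2b (chr4:89306289-89311032). Mtap and the genes next to these were picked after their values were seen. Relative to C1, they stood at 2.36%, 0.258% and no more than 0.735% in C3, and at 5.44%, 7.68% and 7.20% in C2. Mtap had -5.43 and -4.72 in C3, against -4.03 and -3.64 in C2, and its difference of -1.24 ± 0.25 passed, but turned to 0.99 under quantile normalization and was -0.88, not passed, without C3 replicate 1. Nearby genes outside the 3 did not pass: Klhl9 differed by 0.02 ± 0.15 and Tusc1 by -0.02 ± 0.30, and Dmrta1 was at 1 normalized read in all 4 libraries.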

How the data were processed

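RNA of 10 libraries, 2 of each of 5 cell types, was measured by RNA sequencing with a library kit that does not mark strand. TopHat, DESeq and mm10 are named in the submitters' processing notes, with no versions or roles. The authors deposited 1 table of log2 values for 36172 genes. No source gives its normalization. From the values, each gene is centred on its median over the 10 libraries (0 within 1e-05 in all 17821 genes with values), and values under 1 normalized read appear to have been raised to 1. Another 18334 genes were listed at 0 in every library and 17 genes with a cell turned into a date were left out. A level could be read back where at least 2 libraries shared the lowest value. The spacing of low values gave the worth of 1 read, but only 41.7% and 33.0% (C3) and 65.8% and 68.0% (C2) of values up to 20 reads came out whole within 0.01, so no count test was run. Total reads per library are unknown, and intervals and limits cover counting error only. Each fold given as at least a value divides the mean of the higher type by the limit of the lower type. Counting error in that mean is not allowed for.

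Genes of known level needed 10 normalized reads in at least 2 libraries. This removed 3568 genes and left 14253, of which 13058 have an unknown level and could not be filtered. A limma model (3.58.1, in R 4.3.3) with a mean for each type was fitted to all 10 libraries (5 residual degrees of freedom), and C3 minus C2 was tested two-sided with Benjamini-Hochberg adjustment over all genes tested. The scripts were tested on simulated data. Lists were described by counts and medians, with no test of a list. Genes were named by rule: sort markers and sex chromosome genes, the 12 largest differences in each direction, and in each list up to 4 called members in each direction and 2 that did not pass, by smallest adjusted p. A few genes that the rule names are not reported here. Others are marked as picked after their values were seen. The comparison, lists and rule were chosen with earlier results of these data known. Promoter sequences and gene positions are those of RefSeq on GRCm38.p6, the assembly that mm10 names. Alternatives were other scalings, filters, thresholds and sets of libraries.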

Additional observations from a re-analysis of the deposited data

How the results depend on the processing

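Of the genes called, 76.3% to 99.7% were called the same way when 1 library was left out, and none the other way under any alternative. The count of 3971 ranged from 3248 to 4285 without 1 library, that of higher genes (1656) from 1399 to 1767 and that of lower genes (2315) from 1849 to 2518. Where a type kept 1 library, that library was assumed to vary like the others. Tested against a log2 difference of 1, 1458 genes passed, 446 higher and 1012 lower, with 194 list members, among them 9 matricellular, 4 mitosis, 6 DNA replication and 4 insulin-like growth factor genes, of which fewer can pass a stricter null. Quantile normalization left 6 insulin-like growth factor genes lower, and it turned 3 named differences: Anpep to 0.048, Gpx3 to 0.063 and Mtap to 0.987 (limma adjusted p 0.0239), and the cause was not tested. With replicate number as a block 3936 genes were called, 1653 higher and 2283 lower, but same-numbered C3 and C2 libraries deviated together with a correlation of only 0.0509, so the numbers do not pair the samples. Of 205 named genes called, 39 lost the call without 1 library. The lower depth of C2 limits what can be said of genes near 6.12 normalized reads, and 13058 genes have no known level.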
